A study of Mus musculus with 9 samples.

Results

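The genes described here are 10 feedback inhibitors of MAP kinase signalling: the dual-specificity phosphatases Dusp1, Dusp4, Dusp5, Dusp6 and Dusp14, the Sprouty genes Spry1, Spry2 and Spry4, and the Sprouty-related genes Spred1 and Spred2. They were chosen by symbol, with earlier results of these data known, and all 10 were found among the 23607 genes of the tables. RNA was recovered by immunoprecipitation of phosphorylated ribosomal protein S6 (pS6-IP) from the olfactory epithelium (OE) of 9 C57BL/6 mice. pS6-IP enriches mRNAs carried by ribosomes of cells in which S6 is phosphorylated, a mark that rises in neurons after they fire. Of these mice, 3 were controls exposed to distilled water, 3 had been exposed to 1% heptanal and 3 to 100% heptanal, a straight-chain aldehyde odor, in each case for 1 hr. The water or odor solution was put on filter paper held in a cassette inside the container of the mouse. Each group held 1 mouse of postnatal day 22, 1 of day 21 and 1 of day 18 by the labels. The age range given in the study's methods starts above day 18, and the ages of the labels are used here. The methods describe the mice of a replication as littermates of the same sex, so the 3 mice of a day are called a litter here. The comparisons ask whether the mRNAs of these feedback genes were recovered in different amounts after the odor, at each concentration, within litters.

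MAP kinase cascades carry a signal from the membrane to the nucleus through kinases that phosphorylate each other in turn, the ERK, JNK and p38 cascades being the best known. Dual-specificity phosphatases remove the phosphates from both the threonine and the tyrosine of an active MAP kinase, while Sprouty and Spred proteins act further up, between receptor tyrosine kinases, Ras and Raf. Several of these inhibitors are themselves transcribed when the cascade is active, and so close a negative feedback loop. In olfactory sensory neurons (OSNs), odor binding raises cAMP and calcium, and ERK is among the kinases that become active downstream.

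Total estimated counts per mouse were between 5438494 and 9707592, and 14930 genes had enough counts to be tested. No library was a duplicate of another of its group, since any pair within a group gave a chi-square per degree of freedom of 31.7 or above. Pairs from different groups were not compared in this way. The mature OSN markers Omp, Adcy3, Ano2, Cnga2 and Gnal were detected in all 9 libraries, and their summed level was higher at 100% heptanal than in the control of the same litter in 3 of 3 litters. Because that sum moves with the odor, it is set beside the results that follow. Levels are given as CPM, counts scaled to a common library size by the trimmed mean of M-values (TMM), and a difference between groups is a fitted log2 fold change with its standard error (SE) and its p adjusted over all 14930 genes. The reads were amplified by PCR and carried no molecular identifiers, so counts are not counts of independent molecules.

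The sequence upstream of 3 of the genes is printed because Dusp14 was the member that rose, and because Dusp1 and Dusp5 were the members whose promoters hold the cAMP response element or a CArG box, elements known to serve cAMP and ERK signalling. The sequences are from RefSeq on GRCm38.p6 and run 5′ to 3′ toward the start of the gene, with the motif matches in capitals. For Dusp14, on the minus strand at chr11:84068358-84068480, the 123 bases nearest the start of the curated transcript are given, since bases farther up lie in an exon of predicted transcripts. Dusp1 is on the minus strand at chr17:26508473-26508722, and Dusp5 is on the plus strand at chr19:53528895-53529144.
Dusp14: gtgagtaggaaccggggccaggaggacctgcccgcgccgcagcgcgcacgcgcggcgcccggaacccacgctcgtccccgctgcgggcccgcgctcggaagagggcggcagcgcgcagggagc
Dusp1: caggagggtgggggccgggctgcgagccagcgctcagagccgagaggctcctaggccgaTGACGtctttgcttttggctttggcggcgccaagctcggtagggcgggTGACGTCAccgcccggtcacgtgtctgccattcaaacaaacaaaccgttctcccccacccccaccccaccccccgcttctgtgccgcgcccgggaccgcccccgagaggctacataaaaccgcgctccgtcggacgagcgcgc
Dusp5: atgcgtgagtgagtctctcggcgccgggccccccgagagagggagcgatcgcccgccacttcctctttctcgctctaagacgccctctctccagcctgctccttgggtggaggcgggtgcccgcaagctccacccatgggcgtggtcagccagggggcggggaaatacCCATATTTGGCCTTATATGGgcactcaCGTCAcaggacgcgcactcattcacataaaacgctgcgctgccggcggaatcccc

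Motifs were searched on both strands in the 250 bases before the start and the 50 after it. The promoter table held 8 of the 10 members, the others being Dusp4 and Spry4. The cAMP response element TGACGTCA was found in Dusp1, where its first base lies 143 bases before the start, and in none of the other 7, and 1.79% of 32851 mouse promoters hold it. Its shorter core TGACG, which the longer element contains, was found in Dusp1, Dusp5 and Spred2, against 20.8% of all promoters. The CArG box, the element bound by serum response factor, occurred at 2 adjoining places in Dusp5, 82 and 72 bases before the start, against 1.63% of all promoters with at least 1. The AP-1 motif TGANTCA and the EGR motif GCGNGGGCG were in none of the 8, against 7.81% and 5.55% of all promoters. Within the bases searched, the Dusp14 promoter held none of the 5 motifs, so the capitals are found only in the Dusp1 and Dusp5 sequences.

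Between genes, levels were set side by side per length, as mean CPM per kb of the longest curated RefSeq transcript in the 3 controls. The cDNA was primed with poly-T, so reads need not scale with transcript length, and whether they did was not tested. The order below depends on that division. Dusp14, a small phosphatase that lacks the kinase-binding domain of the classical members, had the highest level at 147 ± 43.7 CPM per kb (SD, n = 3). Spry1 followed at 71.7 ± 21.5, Dusp6 at 46.6 ± 10.05 and Dusp1 at 43.8 ± 7.34 CPM per kb (SD, n = 3). Per kb, the ranges of Dusp14 and Spry1 in controls did not overlap. In CPM without the division by length they did, at 143 to 266 CPM for Dusp14 and 135 to 239 CPM for Spry1. The ranges per kb of Spry1 and Dusp6 met at 54.2 and 54.1 CPM per kb, and those of Dusp6 and Dusp1 overlapped. Spred1 at 9.99 ± 3.23, Dusp4 at 6.86 ± 2.61 and Dusp5 at 4.83 ± 1.94 CPM per kb (SD, n = 3) formed a lower group, in which each gene's range overlapped that of its neighbour. Spry2 at 0.984 ± 0.340 and Spry4 at 0.749 ± 0.295 CPM per kb (SD, n = 3) also overlapped each other. Spred2 was the lowest at 0.282 ± 0.153 CPM per kb (SD, n = 3), with 2 to 16 counts per mouse, and it was the member with too few counts to be tested. Reads that map to several places were assigned to genes by the authors, and they made up 33.7% of the counts of Spry2 and 59.2% of those of Spred2, but 6.54% or less of the counts of the other 8 genes.

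**Figure D1:**
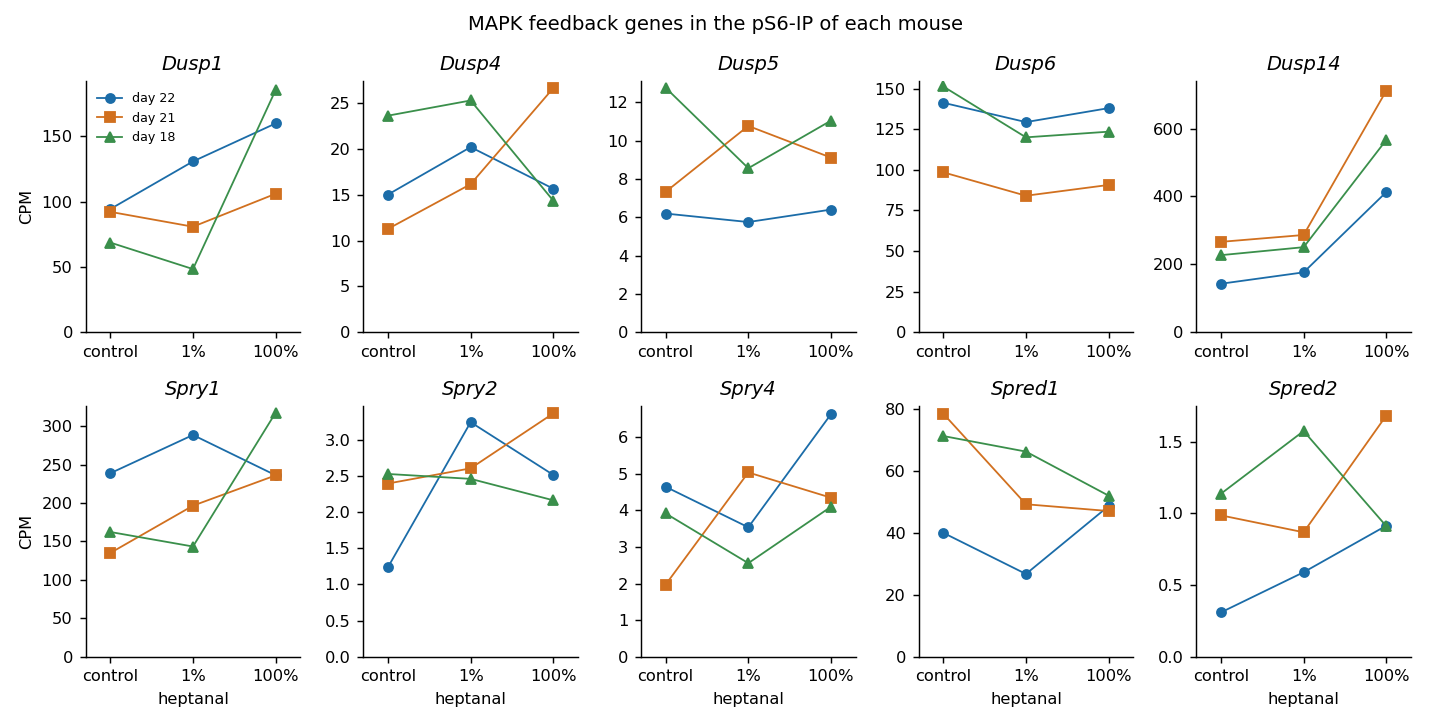
Levels of the 10 genes in each mouse, in CPM on a linear axis from 0 that differs between panels, in controls and after 1% and 100% heptanal. Lines join the 3 mice of a litter (day 22 circles, day 21 squares, day 18 triangles), and Dusp14 is the gene in which all 3 lines rise at both steps.

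Dusp14 was the member that passed the test below, its mRNA being recovered in larger amounts at 100% heptanal. In controls its level was 143 CPM in the mouse of day 22, 266 CPM in that of day 21 and 227 CPM in that of day 18. After 1% heptanal it was 176, 286 and 250 CPM in the same order of days. After 100% heptanal it was 413, 711 and 566 CPM. The lowest mouse at 100% heptanal therefore lay above the highest mouse of both other groups, while controls and 1% mice overlapped. Litters differed in their base level, day 22 being lowest and day 21 highest in every group, but the rise was alike: the level at 100% heptanal was 2.89, 2.67 and 2.50 times that of the control on days 22, 21 and 18.

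In the fit across all genes, Dusp14 was 2.68-fold higher at 100% heptanal than in controls, a log2 fold change of 1.42 (SE 0.12, 95% interval 1.15 to 1.70, edgeR adjusted p = 0.00361). It ranked 5 by p among the 14930 genes. Only 1 of the 9 members tested passed the threshold of 0.05 in this comparison, where 48 genes were higher and 0 lower, which is 0.322% of all genes tested. The adjusted p was above 0.05 when the control of day 22 (0.0726) or of day 21 (0.0624) was left out, and without any litter (0.0661 to 0.175), while the log2 fold change stayed between 1.36 and 1.48 over all 12 fits that left out a mouse or a litter. Without the litter as a block the log2 fold change was 1.41 (SE 0.31) with an edgeR adjusted p of 0.58.

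At 1% heptanal the level of Dusp14 was 1.24, 1.08 and 1.10 times that of the control on days 22, 21 and 18. The fitted log2 fold change was 0.18 (SE 0.12, 95% interval -0.09 to 0.46, edgeR adjusted p = 1.0). Between the concentrations, 100% was above 1% in 3 of 3 litters, by 2.34, 2.48 and 2.26 times, and the log2 fold change was 1.24 (SE 0.12, edgeR adjusted p = 0.0077). In this comparison too 1 of 9 members passed, against 0.0804% of all genes, namely 12 higher and 0 lower. The order control, then 1%, then 100% held in 3 of 3 litters for Dusp14, and in at most 1 of 3 for each of the other 9 genes. The share of all genes with this order was not counted. Relative to the summed mature OSN markers, the order of Dusp14 did not hold on day 18. Its ratio to them was 0.0535 in that control, 0.0407 at 1% heptanal and 0.0536 at 100% heptanal.

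At 100% heptanal the mature OSN markers were higher in sum, as Dusp14 was. At 1% heptanal their sum differed from the control by 0.22, -0.04 and 0.54 on the log2 scale on days 22, 21 and 18. Their summed level was 4237 to 8713 CPM in controls, 6154 to 8480 CPM at 1% heptanal and 10558 to 14891 CPM at 100% heptanal, and within litters 100% heptanal exceeded the control by 1.00, 0.77 and 1.32 on the log2 scale on days 22, 21 and 18. Omp, the most abundant of them, rose with a log2 fold change of 1.11 (edgeR adjusted p = 0.0311). The other 4 markers did not pass the test, with log2 fold changes of 0.34 (Adcy3), 0.57 (Ano2), 0.78 (Gnal) and 1.27 (Cnga2). Omp made up most of the sum, for example 3298 of 4237 CPM in the control of day 18. At 100% heptanal on that day it was 8711 of 10558 CPM, so the ratio and the scaled fit below rest largely on Omp. The ratio of Dusp14 to the marker sum went from 0.0243 to 0.0351 on day 22 and from 0.0305 to 0.0478 on day 21, and it was 0.0535 in the control and 0.0536 at 100% heptanal on day 18. The ratio was thus higher in the litters of days 22 and 21 and level in that of day 18. In a fit scaled by the marker sum, the log2 fold change of Dusp14 at 100% heptanal was 0.39 (SE 0.21, 95% interval -0.08 to 0.85, edgeR adjusted p = 0.126), where the median of all genes was -1.04. Scaled in that way, the difference between the concentrations was 0.45 (SE 0.21, edgeR adjusted p = 0.0981). In a precipitate from a whole tissue, more cells of a type, more RNA per cell and more recovery by the pS6-IP cannot be told apart. All 9 libraries were of precipitates.

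**Figure D2:**
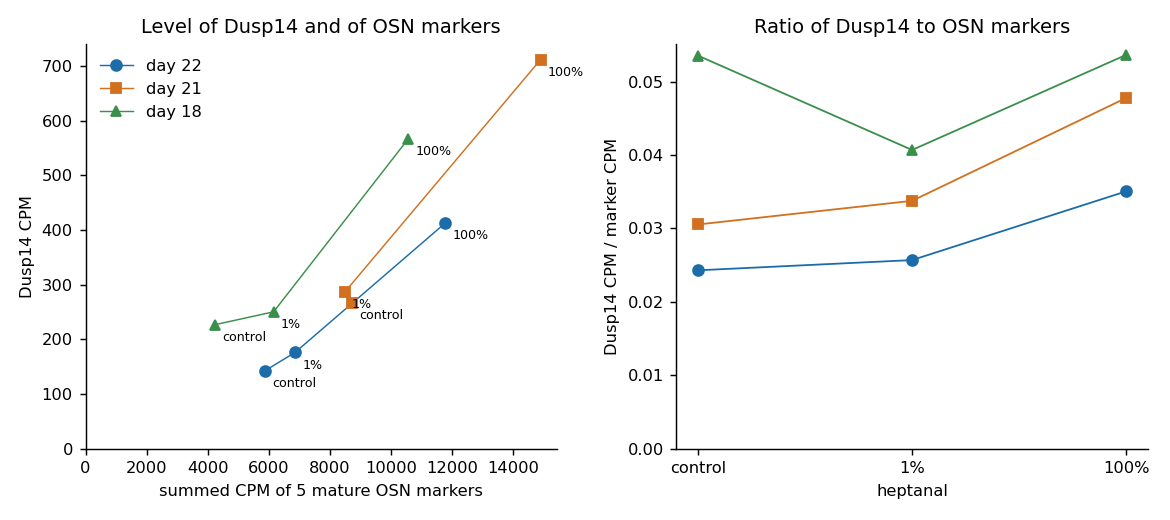
Left, level of Dusp14 in CPM against the summed CPM of 5 mature OSN markers, each point being a mouse and lines joining a litter. Right, the ratio of both values by group, on an axis from 0: at 100% heptanal it is above the control on days 22 and 21 and beside it on day 18, at 0.0535 and 0.0536.

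Markers of other cells in the OE did not all follow the same course. The summed sustentacular markers were 1340 to 1489 CPM in controls and 1739 to 3045 CPM at 100% heptanal, higher in 3 of 3 litters. Among them, Sox2 was below the control on day 22, at 27.0 against 29.0 CPM. The summed markers of immature sensory neurons were 665 to 960 CPM in controls and 956 to 1076 CPM at 100% heptanal. They were also higher in 3 of 3, but by 0.05 on the log2 scale on day 21. On that day Gng8, Ncam1 and Dpysl3 were below the control and Gap43 and Stmn2 above it. The summed markers of basal cells, ensheathing glia and red blood cells were lower at 100% heptanal in 3 of 3 litters. The basal marker Trp63, at 0.347 to 2.96 CPM over all mice, went the other way with a log2 fold change of 0.96. Hba-a1 and Hba-a2 had the same value in every mouse, and the red blood cell sum holds both. In each of these 5 lists 0 markers passed the edgeR test at 100% heptanal. The summed markers of immune and ciliated cells were lower in 3 of 3 too, but by under 0.01 on the log2 scale on day 22, and those of microvillous and endothelial cells went both ways. Red blood cell genes had the widest range, 1677 to 12194 CPM in controls and 1031 to 7614 CPM at 100% heptanal, and Scgb1a1, a marker of respiratory secretory cells, was at 0 in all libraries. The part of these shifts in the levels of the feedback genes was not tested.

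Dusp1, the nuclear phosphatase of p38, JNK and ERK whose promoter holds the cAMP response element printed above, had the next lowest p. Its level was 94.3, 92.2 and 68.6 CPM in the controls of days 22, 21 and 18, 131, 80.8 and 48.3 CPM at 1% heptanal and 160, 106 and 186 CPM at 100% heptanal. The 100% and control mice did not overlap, but the size of the difference varied, from 1.15 times on day 21 to 1.69 times on day 22 and 2.70 times on day 18. The fitted log2 fold change was 0.84 (SE 0.30, 95% interval 0.15 to 1.53, unadjusted p = 0.0224), and the edgeR adjusted p of 0.385 did not pass the threshold. Leaving out the 100% mouse of day 18 brought the log2 fold change to 0.36, and scaling by the OSN markers brought it to -0.20. At 1% heptanal it was -0.04 (SE 0.30, edgeR adjusted p = 1.0), with 1 litter higher and 2 lower.

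Dusp4 and Dusp5 differed between groups by less than their spread. Dusp4, an inducible nuclear enzyme close to Dusp1, ranged from 11.3 to 23.6 CPM in controls, 16.2 to 25.3 CPM at 1% heptanal and 14.3 to 26.6 CPM at 100% heptanal. Within litters the 100% mouse was the highest on day 21 and the lowest on day 18, and the log2 fold change at 100% heptanal was 0.22 (SE 0.36, edgeR adjusted p = 0.885). Dusp5, a nuclear phosphatase specific to ERK, lay between 5.75 and 12.8 CPM in all mice. Its log2 fold change was 0.03 at 100% heptanal (SE 0.32, 95% interval -0.69 to 0.75) and -0.05 at 1% heptanal, and the intervals reached to both sides of 0.

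Dusp6, the cytoplasmic phosphatase of ERK, was lower than the control in 3 of 3 litters at both concentrations. Its level was 141, 98.5 and 151 CPM in the controls of days 22, 21 and 18, 129, 84.1 and 120 CPM at 1% heptanal and 138, 90.7 and 124 CPM at 100% heptanal. The log2 fold change was -0.15 at 100% heptanal (SE 0.12, edgeR adjusted p = 0.725) and -0.23 at 1% heptanal (SE 0.12, edgeR adjusted p = 1.0), neither past the threshold. Among all genes, 18.1% were lower in 3 of 3 litters at 100% heptanal and 11.7% at 1% heptanal. The span of a long non-coding RNA, Gm34921, overlaps that of Dusp6 in the annotation. Since the library preparation does not mark the strand, reads from exon bases shared by both could not be told apart. Whether their exons overlap was not examined.

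Among the Sprouty genes, whose products block receptor tyrosine kinase signalling ahead of ERK, Spry1 was the most abundant. It had 239, 135 and 162 CPM in the controls of days 22, 21 and 18, 288, 196 and 143 CPM at 1% heptanal, and 236, 236 and 317 CPM at 100% heptanal. The 100% mouse was 0.989 times the control on day 22, and 1.75 and 1.96 times the control on days 21 and 18, so the groups overlapped through the litter of day 22. The log2 fold change was 0.62 (SE 0.25, 95% interval 0.06 to 1.17, unadjusted p = 0.0341, edgeR adjusted p = 0.43), and it was 0.30 without the 100% mouse of day 18 and -0.44 with scaling by the OSN markers. Spry2 had 1.24 to 3.37 CPM and Spry4 1.97 to 6.63 CPM over all mice. Spry4 was higher at 100% heptanal in 3 of 3 litters, by 1.42, 2.16 and 1.04 times on days 22, 21 and 18, yet with 14 to 58 counts per mouse its log2 fold change of 0.51 (SE 0.50, edgeR adjusted p = 0.782) had an interval from -0.62 to 1.63. The intervals of Spry2, with a log2 fold change of 0.38 (SE 0.56, edgeR adjusted p = 0.874), ran from -0.90 to 1.66. With uniquely mapped reads alone, the log2 fold change of Spry2 was 1.04 at 100% heptanal (SE 0.67, edgeR adjusted p = 0.641) and 1.07 at 1% heptanal (SE 0.68, edgeR adjusted p = 1.0), where it had been 0.45, and the gene was then above the control in 3 of 3 litters at both concentrations in place of 2 of 3.

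Spred1, which with neurofibromin holds Ras inactive, was lower than the control in 3 of 3 litters at 1% heptanal and in 2 of 3 at 100% heptanal. It had 40.0, 78.4 and 71.2 CPM in the controls of days 22, 21 and 18, 26.7, 49.2 and 66.1 CPM at 1% heptanal and 48.6, 47.0 and 51.9 CPM at 100% heptanal. The 3 mice at 100% heptanal were close to each other and inside the range of the controls. The log2 fold change was -0.44 at 1% heptanal (SE 0.25, edgeR adjusted p = 1.0) and -0.29 at 100% heptanal (SE 0.25, edgeR adjusted p = 0.739). Spred2 lay between 0.310 and 1.68 CPM in all mice.

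**Figure D3:**
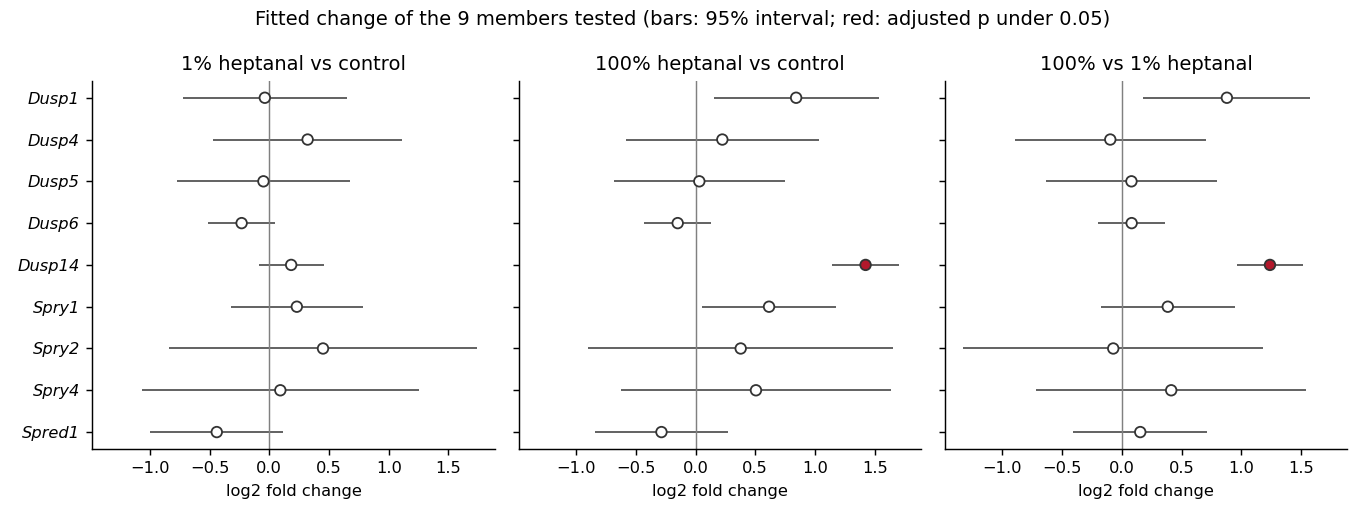
Fitted log2 fold change of the 9 members tested in the 3 comparisons, with 95% intervals as bars and members past an edgeR adjusted p of 0.05 in red. Dusp14 at 100% heptanal against control (1.42) and against 1% heptanal (1.24) are the red points, and the comparisons share mice.

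As a group, the 9 members tested had a median log2 fold change of 0.38 at 100% heptanal, where the median of all genes was -0.0022, and 7 of the 9 were above 0. An unadjusted p under 0.05 was reached by 3 of 9 members (Dusp14, Dusp1 and Spry1), all higher, against 10.4% of all genes in either direction. Groups did not overlap for 2 of 9, Dusp14 and Dusp1, against 5.96% of all genes that were higher without overlap. Dusp1, Dusp14 and Spry4 were higher in 3 of 3 litters, against 18.4% of all genes. Between the concentrations, the same counts were 2 of 9 members with an unadjusted p under 0.05 (Dusp14 and Dusp1, against 10.4% of all genes), 1 of 9 without overlap (Dusp14, against 4.74% higher) and 3 of 9 higher in 3 of 3 litters (Dusp1, Dusp6 and Dusp14, against 16.9%), with a median log2 fold change of 0.15 against 0.02 for all genes. With scaling by the OSN markers the median of the members became -0.66 and that of all genes -1.04, 8 of the 9 members were below 0, all but Dusp14, and Dusp5 (-1.03), Dusp6 (-1.19) and Spred1 (-1.31) passed the test as lower, with edgeR adjusted p of 0.0363, 0.00205 and 0.00247. These are 3 of 9 members in a fit that called 64.9% of all genes lower. Between the concentrations that fit called 1 of 9 members lower, Dusp6 (-0.71, edgeR adjusted p = 0.0232), and 44.3% of all genes.

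At 1% heptanal 0 of 9 members passed, at an adjusted or an unadjusted p under 0.05 by edgeR or an adjusted p by DESeq2, and the median log2 fold change was 0.09 against -0.01 for all genes. In this comparison edgeR called 0% of the 14930 genes, 487 of them (3.26%) had an unadjusted p under 0.05, and DESeq2 called 2 higher and 1 lower. Dusp4 and Dusp14 were higher in 3 of 3 litters, against 11.5% of all genes, and Dusp6 and Spred1 were lower in 3 of 3, against 11.7%.

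The other genes of the pathway were read from lists, which were chosen with earlier results of these data known. At 100% heptanal, 0.322% of all genes passed by edgeR and 10.4% had an unadjusted p under 0.05. Of the other MAP kinase phosphatases and dual-specificity phosphatases, 16 of 18 were tested and 0 passed at 100% heptanal, with a median log2 fold change of 0.0037 and 0 at an unadjusted p under 0.05. DESeq2 also called 0 of these 16. Of the other feedback regulators, 14 of 15 were tested and 0 passed, with a median of -0.13, and 3 had an unadjusted p under 0.05: the Spred paralog Spred3 (-1.61), Phlda1 (-0.52) and the ERK-binding protein Pea15a (0.50), while DESeq2 called 0 of the 14. The core ERK cascade, from receptors through Ras and Raf to the kinases themselves and their RSK and MNK targets, had 23 of 25 genes tested, 0 passing by edgeR or DESeq2, 0 at an unadjusted p under 0.05 and a median of -0.05. In the JNK and p38 cascades 14 of 15 were tested and 0 passed, with a median of -0.08 and 2 at an unadjusted p under 0.05. These were the neuronal JNK gene Mapk10 (0.75, edgeR adjusted p = 0.146) and Map2k3, a kinase upstream of p38 (-0.40, edgeR adjusted p = 0.438). DESeq2 called 1 of the 14 tested, Mapk10, as higher, where over all genes it called 230 higher and 36 lower.

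Among these lists, the immediate early genes that ERK and calcium signalling induce were those with genes past the edgeR threshold at 100% heptanal. Since the list was chosen with earlier results of these data known, its count is a description and no test of the list. Of 19 tested, 5 rose at 100% heptanal, against 0.322% of all genes, 0 fell, and the median log2 fold change was 0.66. They were the AP-1 subunits Fosb (4.98, SE 0.32) and Fos (2.72, SE 0.26), the zinc finger factor Egr1 (2.98, SE 0.21), the nuclear receptor Nr4a1 (2.18, SE 0.22) and the antiproliferative gene Btg2 (1.76, SE 0.17), with edgeR adjusted p of 0.00136 to 0.00695. DESeq2 called 6 higher and 1 lower, where over all genes it called 230 higher and 36 lower. It added Junb and Myc, with edgeR log2 fold changes of 0.99 and -0.94. Fosb, for example, had 3.87, 2.40 and 1.77 CPM in the controls of days 22, 21 and 18, 6.49, 6.60 and 8.86 CPM at 1% heptanal and 88.9, 95.6 and 67.1 CPM at 100% heptanal, with no overlap between any of the groups. All 5 were also higher at 100% than at 1% heptanal past the threshold, against 0.0804% of all genes. With scaling by the OSN markers all 5 still passed at 100% heptanal against control, where Dusp14 did not. That scaled fit called 48 of all genes higher and 9694 lower. Without the litter as a block 1 of the 5 passed at 100% heptanal against control, Fosb (edgeR adjusted p = 0.00398), while the other 4 had adjusted p of 0.121 to 0.145, and against 1% heptanal Fosb passed too (0.0183) and the other 4 had 0.103 to 0.153. At 1% heptanal 0 of the 19 passed by edgeR or DESeq2 and 1 had an unadjusted p under 0.05, which was Fosb (log2 fold change 1.51, unadjusted p = 0.00113, edgeR adjusted p = 1.0).

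**Figure D4:**
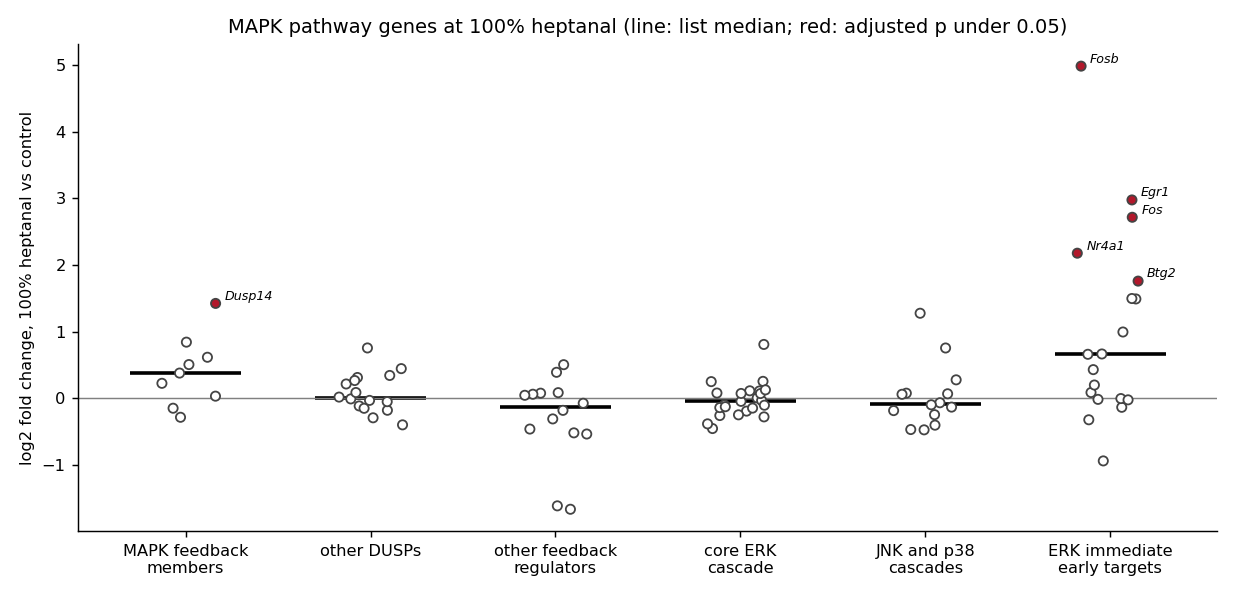
Fitted log2 fold change at 100% heptanal against control for the 9 feedback members tested and 5 lists of other MAP kinase pathway genes, each point being a gene and thick lines the list medians. Genes past an edgeR adjusted p of 0.05 are red and named: Dusp14 among the members and 5 immediate early genes.

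After the mean of each litter was subtracted, the genes whose log2 CPM followed Dusp14 most closely over the 9 mice were Kirrel2 (Pearson r = 0.998), an adhesion molecule of OSN axons, Tsc22d1 (r = 0.998) and Ubl3 (r = 0.992). All 3 were among the genes that rose at 100% heptanal, with log2 fold changes of 1.17, 1.57 and 1.03. A rise there follows from choosing them by their likeness to Dusp14 over the same mice, so it is no separate result. Among those most like Dusp1 were Gstm2 (r = 0.988) and Ccdc91 (r = 0.981), neither of which passed the test. The mice share litters and exposures, and these r values describe them with no test. Among the members themselves, r with Dusp14 was 0.74 for Dusp1, 0.63 for Spry1 and 0.54 for Spry4, and -0.23 for Dusp6 and -0.18 for Spred1.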

How the data were processed

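RNAseq was performed on pS6-IP of the OE of 9 mice. The authors primed cDNA with poly-T, amplified it by PCR, made libraries that do not mark the strand, mapped the reads with Bowtie (mm10), used BEDTools for counts per gene and deposited 1 table per mouse with no header. One column of whole numbers was taken, from its values, as deposited counts of uniquely mapped reads. The last column was taken as deposited estimated counts, to which the authors had added reads shared between genes by a rescue scheme, 23.9% to 30.5% of a library. These expected counts were rounded and used for all values.

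Genes were kept by filterByExpr (14930 of 23607), scaled by TMM and tested with edgeR 4.0.16 in R 4.3.3 (glmQLFit and glmQLFTest) over 3 groups with the litter as a block and Benjamini-Hochberg adjustment over all of them, with a threshold of 0.05. The SE of a log2 fold change was obtained from its F value. Pairing comes from the shared postnatal day in the labels and from the methods. The deviations of the 9 same-day pairs from their group means correlated with r of 0.141 to 0.702. Pairs of different days and groups had r of -0.714 to 0.444, so some of them lay above the lowest same-day pairs. All 21 other settings, DESeq2 1.42.0 among them, were fitted on all genes, and the fit was tested on simulated data, where its share of false calls in both comparisons with 100% heptanal was above the nominal threshold. Tables and plots used pandas 2.3.3, numpy 2.4.6 and matplotlib 3.10.9 in Python 3.11.15.

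Coordinates, promoters and transcript lengths are from RefSeq on GRCm38.p6, the patched release of the mm10 assembly. All 10 members are named in the text, with the genes of 5 pathway lists that passed the test (at most 5 per list), the 3 genes most like each of the 2 members with the lowest p at 100% heptanal (1 gene of that rule is not reported here), and, chosen after their values were seen, genes behind small counts. The members and lists were chosen with earlier results of these data known.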

Additional observations from a re-analysis of the deposited data

Results flagged for a closer look

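The effect of 100% heptanal on Dusp14 was larger than that of 1% heptanal. The difference between both effects, which is the comparison of 100% with 1% heptanal in the same fit, was 1.24 on the log2 scale (SE 0.12, edgeR adjusted p = 0.0077), and the level was higher at 100% heptanal in 3 of 3 litters. With scaling by the mature OSN markers this difference was 0.45 (SE 0.21, edgeR adjusted p = 0.0981).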

How the results depend on the processing

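Dusp14 passed at 100% heptanal with library-size scaling, RLE size factors, uniquely mapped counts, no filter, a stricter filter, a robust fit and DESeq2 (log2 fold change 1.42 to 1.43, adjusted p 6.45e-19 to 0.00489), and against 1% heptanal as well (1.21 to 1.24, adjusted p 4.66e-14 to 0.00919). With no replicate block, 0 members passed (Dusp14 1.41, adjusted p = 0.58, and 1.25 against 1% heptanal, adjusted p = 1.0), all genes called higher numbered 2 at 100% heptanal and 2 against 1% heptanal, and Dusp1 at 1% heptanal was 0.026. With DESeq2, 230 genes were higher and 36 lower at 100% heptanal, 2 and 1 at 1% heptanal, and 184 and 27 against 1% heptanal. With library-size scaling 28 were higher at 100% heptanal, and with no filter 74 higher and 2 lower, 1 higher at 1% heptanal and 25 higher against 1% heptanal.

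With scaling by 5 mature OSN markers, 9694 genes were lower at 100% heptanal and 3 members passed, all lower, and 78 genes were higher and 6613 lower against 1% heptanal, where 1 member, Dusp6, passed as lower. The log2 fold changes that turned sign there were Dusp1 -0.20, Dusp4 -0.82, Dusp5 -1.03, Spry1 -0.44, Spry2 -0.66 and Spry4 -0.56 at 100% heptanal, Dusp14 -0.066, Spry1 -0.010 and Spry4 -0.18 at 1% heptanal, and Dusp5 -0.72, Dusp6 -0.71, Spry1 -0.43, Spry4 -0.39 and Spred1 -0.63 against 1% heptanal. Median shifts of all genes were -1.04, -0.26 and -0.77 in the same order of comparisons.

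Leaving out 1 mouse or 1 litter, in 12 fits, gave 1 to 62 genes higher, 0 to 3 lower and 0 to 1 members called at 100% heptanal, and 0 to 33 higher, 0 to 2 lower and 0 to 1 members against 1% heptanal. Against 1% heptanal, Dusp14 fell short without the 1% mouse of day 21 (adjusted p = 0.0884), the 100% mouse of day 21 (0.0951) or of day 18 (0.0594), and without any litter (0.0826 to 0.499), at log2 fold changes of 1.18 to 1.28. Signs were not settled for Dusp4 (-0.33 to 0.68) and Dusp5 (-0.17 to 0.25) at 100% heptanal, Dusp1 (-0.35 to 0.29), Dusp5 (-0.34 to 0.23) and Spry4 (-0.49 to 0.47) at 1% heptanal, or Dusp4 (-0.64 to 0.28), Dusp5 (-0.11 to 0.33), Spry2 (-0.30 to 0.25) and Spred1 (-0.22 to 0.43) against 1% heptanal. With 3 mice per group and 2 to 58 counts per mouse, Spry2, Spry4 and Spred2 allow no statement on small changes. The cause of these differences was not tested. The planned comparison of protein sequences was not run.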
